A study of Homo sapiens with 4 samples.

Results

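The genes described here encode 5 fibroblast growth factor (FGF) ligands, *FGF1*, *FGF2*, *FGF5*, *FGF7* and *FGF18*, and 5 FGF receptors, *FGFR1*, *FGFR2*, *FGFR3*, *FGFR4* and *FGFRL1*, chosen by name. All 10 were found by Ensembl identifier among the 63677 genes of the count table. They were measured by RNA sequencing in LX-2 cells, an immortalized human hepatic stellate cell line, so that every library stems from 1 line. One group was given a synthetic mimic of the human microRNA miR-6133-5p and the other miControl, the negative control, each by transfection at 20 nM. The medium of both groups was then supplied, after 24 h, with 5 ng/mL of rhTGF-β1, the recombinant form of the cytokine that activates stellate cells. RNA was collected 24 h after rhTGF-β1 and gave 2 libraries per group, called replicates 1 and 2. Since every library was treated with rhTGF-β1, and none came from untransfected cells, the comparison is of the 2 mimics in TGF-β-treated cells.

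FGFs are secreted proteins that bind receptor tyrosine kinases together with heparan sulfate, a sulfated sugar chain of the cell surface and matrix. The bound receptors pair, phosphorylate the docking protein FRS2 and pass the signal to the ERK, PI3K-Akt and phospholipase C-γ pathways. In the liver, FGFs act on hepatic stellate cells, the main producers of collagen in fibrosis, as well as on hepatocytes. *FGF1* and *FGF2* encode ligands without a classical signal peptide, *FGF5* a ligand with one, *FGF7* the keratinocyte growth factor, which binds an epithelial form of FGFR2, and *FGF18* a ligand best known from bone and cartilage. *FGFR1* to *FGFR4* encode the receptor kinases, whereas *FGFRL1* encodes a receptor that lacks the kinase domain.

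The transfected mimic stands for a microRNA processed from the *MIR6133* hairpin, which lies on the plus strand at chr7:133290881-133290988 of GRCh38.p14. Its RefSeq sequence is shown because it is the source of the agent that the groups differ by.
MIR6133 hairpin: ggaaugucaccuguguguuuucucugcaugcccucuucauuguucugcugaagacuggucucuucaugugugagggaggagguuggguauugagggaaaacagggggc

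Library totals ran from 51862006 to 93811213 counts, and 1 count corresponded to between 0.0101 and 0.0203 CPM, the unit of level used here. In this unit a count is divided by its library total, after that total is multiplied by a factor from the trimmed mean of M values (TMM). The factors were 0.948 and 0.941 for the miControl libraries and 1.059 and 1.057 for the miR-6133-5p libraries. The CPM values of a library therefore do not sum to a fixed total. Of 12 hepatic stellate cell markers, 5, among them *DES*, the lowest, and *GFAP*, were below 1 CPM in every library, while *SPARC* was the highest with 3639 ± 53.1 CPM in the miControl group and 2751 ± 181 CPM in the other (SD, n = 2). The summed level of these 12 markers was 8420 to 8984 CPM under miControl and 5631 to 6259 CPM under miR-6133-5p, and 3 of the 8 that could be tested, *ACTA2*, *COL1A1* and *COL1A2*, were called lower. *COL1A1*, at 2917 ± 275 and 1064 ± 97.5 CPM, and *SPARC* made up most of the difference in the sum, while *VIM* at -0.02 and *PDGFRB* at 0.04 (log2 fold change) did not pass the test, and *TIMP1* was higher without passing (0.42, adjusted p = 0.0134, edgeR). Summed levels stayed at or below 5.88 CPM for 4 endothelial markers, 2.84 CPM for 6 hepatocyte markers and 2.34 CPM for 5 macrophage markers, with *TEK*, *SERPINA1* and *CD14* the highest of each and *TTR* and *CD163* at 0 counts in every library. The 4 cholangiocyte markers summed to 83.9 and 85.3 CPM with miControl and to 39.9 and 36.8 CPM with miR-6133-5p. *SOX9* fell from 80.5 ± 0.427 to 31.3 ± 2.53 CPM, *KRT7* went the other way, from 4.03 ± 0.582 to 6.84 ± 0.335 CPM (log2 fold change 0.76, adjusted p = 0.00317, edgeR, short of a call), and *KRT19* and *EPCAM* stayed below 0.2 CPM in every library, with *KRT19* higher in both miR-6133-5p libraries. All libraries stem from 1 line, and in whole cultures fewer cells expressing a marker and less of its RNA per cell cannot be told apart. The part of these marker levels in the results for the FGF genes was not tested.

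Of the 8 members with enough counts for a test, 4 fell with miR-6133-5p, namely *FGF1*, *FGF2*, *FGF5* and *FGFR1*, and no member rose. The ligands fell to about 30% of their miControl level, between 3.09-fold and 3.37-fold, and *FGFR1* fell 1.94-fold. A gene was called lower or higher when its adjusted p-value was below 0.01 and its log2 fold change was beyond 0.8 in edgeR's quasi-likelihood test, with Benjamini–Hochberg adjustment over 18252 genes. At these thresholds 5.54% of all tested genes were called lower and 2.90% higher, that is 1011 and 529 genes, and the balance turned to 709 lower and 977 higher with libraries scaled by total alone. The count of 0 members called higher compares with 2 members, *FGFR3* and *FGFR4*, that were higher at an unadjusted p-value below 0.05, and DESeq2, which gave 1 member no adjusted p-value, also called 4 members lower and 0 higher. The median log2 fold change was -0.57 over the 8 members and 0.03 over all tested genes. The paper had already reported *FGF1*, *FGF2*, *FGF5* and *FGFR1* as reduced in these libraries, and the list includes all 4. The share of members called and their median therefore describe the list, and are no independent evidence on FGF genes. For 5 of the 8 members, *FGFRL1* being the fifth, neither library of the miR-6133-5p group reached the level of either miControl library, and for 2 members both exceeded it, where 31.3% and 33.2% of all tested genes did so. Groups of 2 libraries allow no exact permutation test of a single gene below p = 0.33, so the p-values depend on edgeR pooling information on variance over all genes, and nothing in the labels says that the replicates were separate cultures.

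**Figure D1:**
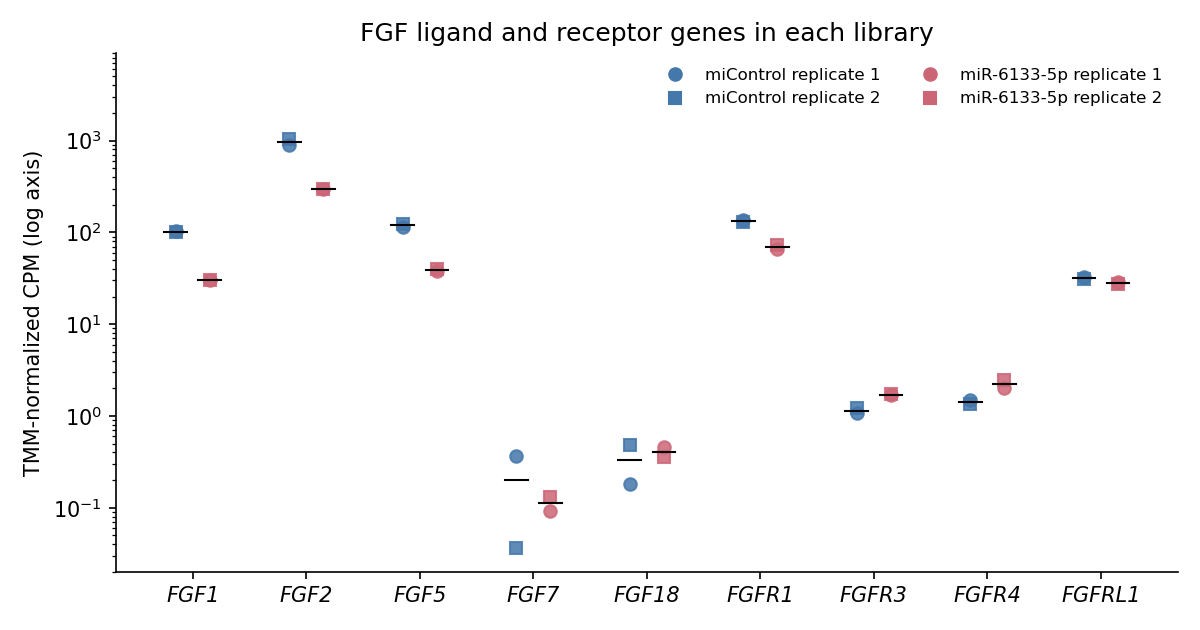
TMM-normalized CPM, on a log axis, of the FGF ligand and receptor genes in each of the 4 libraries, with miControl in blue, miR-6133-5p in red, circles for replicate 1, squares for replicate 2 and black lines for group means. *FGF1*, *FGF2*, *FGF5* and *FGFR1* are lower in both miR-6133-5p libraries, *FGF7* and *FGF18* stay below 0.5 CPM, and *FGFR2*, at 0 counts in every library, is not drawn.

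*FGF2*, the basic fibroblast growth factor and a mitogen for mesenchymal cells, was the most abundant member. Its level was 901 and 1035 CPM in the miControl libraries and 295 and 298 CPM in the miR-6133-5p libraries. The groups were far apart, and the miControl libraries differed from each other by much more than the miR-6133-5p libraries did. The log2 fold change was -1.71 with a standard error of 0.109 (adjusted p = 2.27e-07, edgeR), and its 95% interval ran from -1.94 to -1.47. *FGF2* (ENSG00000138685) lies on the plus strand of chromosome 4 of GRCh37 from 123747837 to 123819391. Exons of *NUDT6*, transcribed in the other direction, overlap 11.8% of its exon bases, and the strand setting of the counting is not given in the sources used here. *NUDT6* itself had between 131 and 458 counts per library, 0.296% to 1.67% of the counts of *FGF2*, and its log2 fold change of 0.59 (adjusted p = 0.033, edgeR) was of the opposite sign.

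*FGF1*, the acidic fibroblast growth factor, which can bind all 4 receptor kinases, was at 103 and 100.1 CPM with miControl and at 30.0 and 30.2 CPM with miR-6133-5p. The replicates lay close together in both groups. The log2 fold change was -1.75 with a standard error of 0.102 (adjusted p = 1.08e-07, edgeR), and its 95% interval ran from -1.97 to -1.53. It placed *FGF1* 230th among 18252 genes ordered from the largest fall. *FGF1* (ENSG00000113578) lies on the minus strand of chromosome 5 from 141971743 to 142077635.

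*FGF5*, known as an inhibitor of hair growth and as an oncogene in transfected fibroblasts, was at 115 and 125 CPM with miControl and at 37.6 and 40.2 CPM with miR-6133-5p. The groups did not overlap. The log2 fold change was -1.63 with a standard error of 0.105 (adjusted p = 2.36e-07, edgeR), and its 95% interval ran from -1.85 to -1.40. *FGF5* ranked 296th from the largest fall, close behind *FGF2* at 258th. *FGF5* (ENSG00000138675) lies on the plus strand of chromosome 4 from 81187793 to 81257834. The intervals of the 3 ligands covered one another, and differences between them were not tested.

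*FGF7* and *FGF18* were barely detected. *FGF7* had 18 and 2 counts with miControl and 6 and 13 counts with miR-6133-5p, too few for a test. The groups overlapped, and the miControl libraries spanned the whole range. *FGF18* had 9 and 26 counts with miControl and 30 and 35 counts with miR-6133-5p, 0.183 to 0.477 CPM in all, and the groups overlapped once scaled for depth. Its log2 fold change of 0.27 had a 95% interval from -0.87 to 1.41 (adjusted p = 0.753, edgeR), which leaves both a fall and a rise within the interval. Without miControl replicate 1 its log2 fold change was -0.25. *FGF7* (ENSG00000140285) lies on the plus strand of chromosome 15 from 49715434 to 49780972, and *FGF18* (ENSG00000156427) on the plus strand of chromosome 5 from 170846651 to 170884630.

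To set ligands against one another, CPM was divided by the length of the union of a gene's exons in kilobases. On this scale *FGF2* was at 142 ± 13.9 with miControl and 43.6 ± 0.300 with miR-6133-5p (CPM per kilobase, SD, n = 2). *FGF1* at 20.4 ± 0.375 and *FGF5* at 20.1 ± 1.09 with miControl did not differ beyond their spread, and with miR-6133-5p they were at 6.04 ± 0.0283 and 6.52 ± 0.308. Their order depended on the length, since per kilobase of canonical transcript *FGF1* was higher with miControl, at 27.1 ± 0.498 against 22.6 ± 1.22. *FGF18* was at 0.165 ± 0.104 and *FGF7* at 0.0309 ± 0.0357 with miControl. In order of level per length, *FGF2* ranked 184th of 17717 tested genes with a known length in the miControl group and 784th in the miR-6133-5p group. *FGF2* made up 76.7% and 78.7% of the summed level of the 5 ligands with miControl and 77.6% and 77.1% with miR-6133-5p. These ranges overlapped, so the share of *FGF2* did not differ beyond the spread between replicates, although the sum of the ligands went from 183 ± 14.7 to 56.4 ± 0.603 CPM per kilobase.

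The promoters of the 3 ligand genes that fell together follow as RefSeq gives them for GRCh38.p14, each a window of 300 bases that holds the annotated start, in the direction of transcription. The *FGF1* window is chr5:142698021-142698320 on the minus strand, the *FGF2* window chr4:122826581-122826880 on the plus strand and the *FGF5* window chr4:80266338-80266637 on the plus strand. Capitals mark matches, on either strand, to the GC box GGGCGG bound by SP1 and to the CCAAT box CCAAT.
FGF1 promoter: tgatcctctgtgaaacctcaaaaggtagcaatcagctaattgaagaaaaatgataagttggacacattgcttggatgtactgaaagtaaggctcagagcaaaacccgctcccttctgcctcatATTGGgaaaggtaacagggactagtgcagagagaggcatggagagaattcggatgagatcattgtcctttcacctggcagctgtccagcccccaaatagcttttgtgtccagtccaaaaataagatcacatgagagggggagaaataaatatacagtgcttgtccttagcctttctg
FGF2 promoter: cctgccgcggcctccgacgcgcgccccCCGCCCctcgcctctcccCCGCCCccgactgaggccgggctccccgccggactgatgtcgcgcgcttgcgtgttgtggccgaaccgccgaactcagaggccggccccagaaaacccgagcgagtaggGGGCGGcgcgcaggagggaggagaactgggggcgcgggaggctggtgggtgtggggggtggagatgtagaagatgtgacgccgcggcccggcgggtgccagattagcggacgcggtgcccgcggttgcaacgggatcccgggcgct
FGF5 promoter: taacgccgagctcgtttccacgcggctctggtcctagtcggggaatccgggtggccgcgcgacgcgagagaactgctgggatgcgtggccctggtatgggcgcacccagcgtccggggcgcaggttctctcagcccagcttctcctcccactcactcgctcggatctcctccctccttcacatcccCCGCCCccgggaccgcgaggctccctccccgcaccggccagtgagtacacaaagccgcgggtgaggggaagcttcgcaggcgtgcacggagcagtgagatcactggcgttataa

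The GC box occurred 3 times in the *FGF2* window and 1 time in that of *FGF5*, and in 44.6% of 27305 promoters of the same length. It was not found in the *FGF1* window, which held 1 CCAAT box, a motif found in 35.7% of all promoters. None of the 3 windows matched the other 5 motifs searched on both strands, the EGR1 motif GCGNGGGCG (9.28% of all promoters), the AP-1 motif TGANTCA (7.76%), the TEAD motif GGAATG (14.0%), the TATA box TATAAA (12.0%) and the SMAD motif GTCTNGAC (1.57%). The GC content was 44.3% for *FGF1*, 74.7% for *FGF2* and 67.0% for *FGF5*, against a median of 58.3% over all promoters. The windows thus shared none of the 7 motifs across all 3 genes. The GC box was not particular to ligands that fell. It occurred 3 times in the *FGF18* window, 5 times in *FGFR2*, 8 in *FGFR3*, 7 in *FGFR4* and 4 in *FGFRL1*, and not in *FGF7*. The start that LX-2 cells use was not measured.

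Among the receptors, *FGFR1* was the main kinase-bearing receptor transcript in LX-2 cells. Its level was 137 and 131 CPM with miControl and 66.0 and 72.1 CPM with miR-6133-5p. The groups did not overlap, and the replicates of each group lay close together. *FGFR1* fell by 0.96 on the log2 scale (SE 0.104, adjusted p = 1.66e-05, edgeR), with a 95% interval from -1.18 to -0.73. This interval lies above those of *FGF1*, *FGF2* and *FGF5*, and the difference between genes was not tested. The fall was close to the 0.8 needed for a call. It was -0.79, short of the call, under scaling by library totals alone, a scaling that moved the median of all tested genes from 0.03 to 0.19, and relative to that median it was -0.98 under both scalings. It was also not called when edgeR's glmTreat tested the change against 0.8 (adjusted p = 0.389). *FGFR1* (ENSG00000077782) lies on the minus strand of chromosome 8 from 38257733 to 38326352, and exons on the other strand overlap 3.05% of its exon bases.

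*FGFR4*, the receptor for the bile acid hormone FGF19 in hepatocytes, was at 1.51 and 1.34 CPM with miControl and at 2.03 and 2.47 CPM with miR-6133-5p. *FGFR3*, best known as a brake on cartilage growth, was at 1.08 and 1.21 CPM with miControl and at 1.68 and 1.71 CPM with miR-6133-5p. Both genes lay higher in both miR-6133-5p libraries, but neither passed the test. The log2 fold change was 0.67 for *FGFR4* (95% interval 0.15 to 1.19, adjusted p = 0.0519, edgeR) and 0.57 for *FGFR3* (95% interval 0.0013 to 1.13, adjusted p = 0.123, edgeR). Scaling by library totals alone moved *FGFR4* to 0.83, beyond the fold threshold, but its adjusted p of 0.0159 (edgeR) stayed short of a call. *FGFR3* moved to 0.73 (adjusted p = 0.0434, edgeR). *FGFR2*, whose spliced forms bind FGF7 in epithelia and several other ligands in mesenchyme, had 0 counts in every library. If counts were independent, *FGFR2* could have gone unseen up to 0.0610 CPM, what 3 counts are worth in the library of smallest depth, counting error only. A read pair can give more than 1 count, so the limit is higher than this. *FGFR3* (ENSG00000068078) lies on chromosome 4 from 1795020 to 1810599 and *FGFR4* (ENSG00000160867) on chromosome 5 from 176513906 to 176525145, both on the plus strand, and *FGFR2* (ENSG00000066468) lies on the minus strand of chromosome 10 from 123237846 to 123357972.

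*FGFRL1*, the receptor without a kinase, was at 32.6 and 31.2 CPM with miControl and at 28.8 and 27.7 CPM with miR-6133-5p. Both miR-6133-5p libraries lay slightly lower, but the log2 fold change of -0.17 did not pass the test (95% interval -0.40 to 0.05, adjusted p = 0.245, edgeR), and scaling by library totals brought it to -0.0098. The interval excludes a fall as large as that of *FGFR1*. *FGFRL1* (ENSG00000127418) lies on the plus strand of chromosome 4 from 1003724 to 1020686.

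Per kilobase of exon, *FGFR1* and *FGFRL1* were at 7.80 ± 0.247 and 7.34 ± 0.236 with miControl, far above *FGFR4* at 0.296 ± 0.0242 and *FGFR3* at 0.236 ± 0.0195 (CPM per kilobase, SD, n = 2). *FGFR1* accounted for 93.7% and 93.5% of the summed level of *FGFR1* to *FGFR4* in the miControl libraries and for 83.3% and 82.8% in the miR-6133-5p libraries. Its share was thus lower in both miR-6133-5p libraries by far more than replicates differed, and it remained the main receptor kinase transcript in all 4. *FGFR4* had 3.55% ± 0.184 of the sum with miControl and 9.67% ± 0.691 with miR-6133-5p, and *FGFR3* had 2.84% ± 0.320 and 7.27% ± 0.382. The summed level of the kinase-bearing receptors went from 8.33 ± 0.251 to 4.83 ± 0.319 CPM per kilobase.

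The length matters for *FGFR1*, whose annotated exons join to 17201 bases while its canonical transcript has 5697. With canonical transcripts, a choice made after the data were seen, *FGFR1* held 97.0% of the sum with miControl and 91.5% with miR-6133-5p. The length also decides the order of *FGFR1* and *FGFRL1* after miR-6133-5p. They were at 4.01 ± 0.250 and 6.51 ± 0.172 CPM per kilobase of exon union, so that *FGFRL1* was higher, but at 12.1 ± 0.756 and 8.29 ± 0.220 per kilobase of canonical transcript, so that *FGFR1* was higher.

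**Figure D2:**
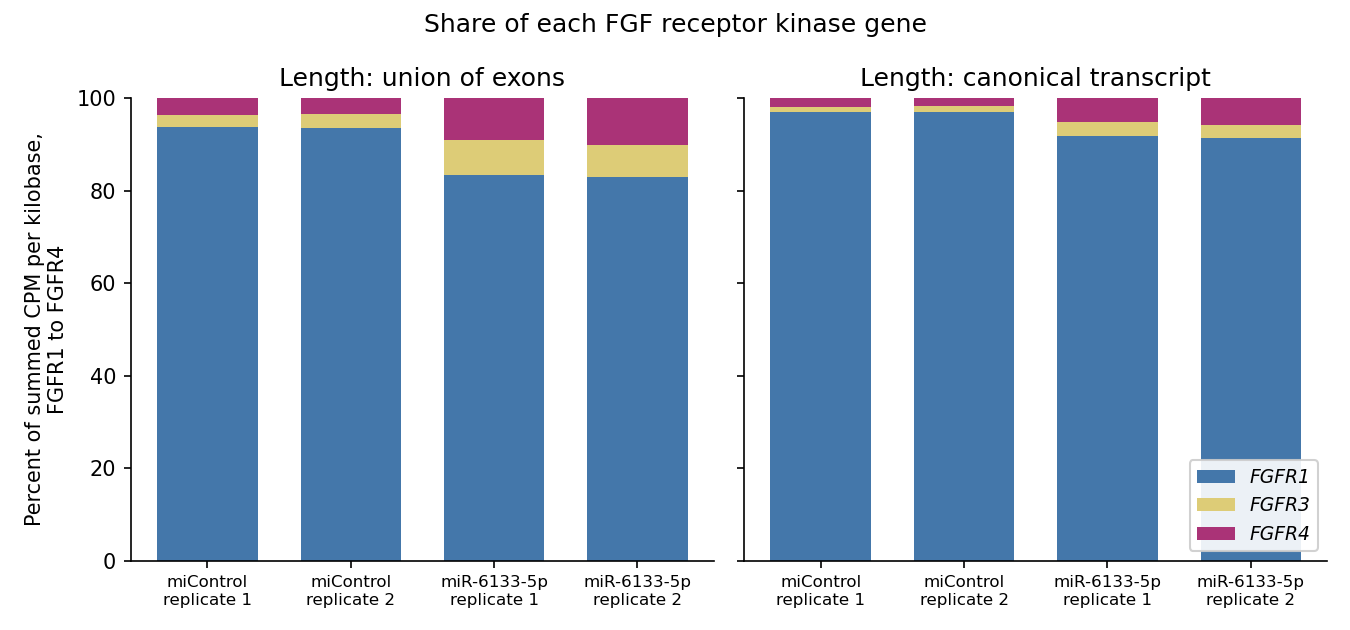
Percent of the summed CPM per kilobase of *FGFR1* to *FGFR4* held by each gene in each library, with the length taken as the union of exons (left) or as the canonical transcript (right). *FGFR1* holds over 80% in every bar and less in the miR-6133-5p libraries, and *FGFR2*, at 0, has no visible part.

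Ratios within a library do not depend on how libraries are scaled. The level of *FGFR1* per kilobase of exon was 1.06 times that of *FGFRL1* in both miControl libraries, and 0.578 and 0.656 times in the miR-6133-5p libraries. Per kilobase of canonical transcript it was 2.52 times in both miControl libraries and 1.37 and 1.56 times in the others, so that the near equality with miControl holds for the exon union alone among the lengths tried. The 5 ligands together exceeded the 4 kinase-bearing receptors 20.3-fold and 23.7-fold with miControl, and 12.2-fold and 11.2-fold with miR-6133-5p. With canonical transcripts this excess was 7.45-fold and 8.68-fold against 4.73-fold and 4.38-fold. In both ratios the groups lay apart by more than the replicates of either, and with 2 libraries per group no exact test could pass. In all lengths tried, both ratios were lower in both miR-6133-5p libraries.

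**Figure D3:**
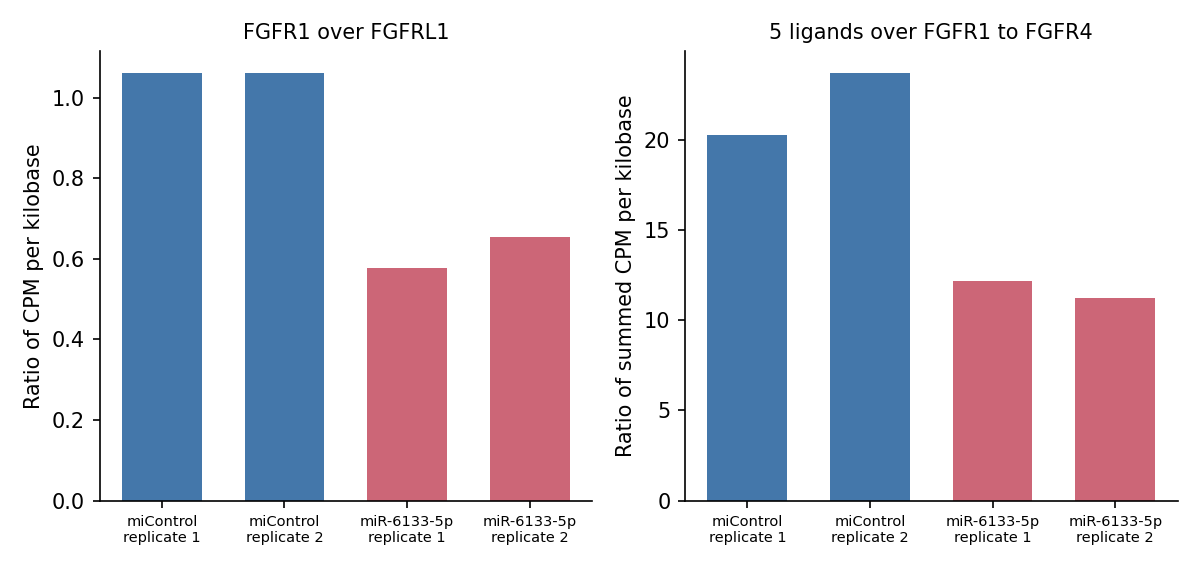
Ratio of *FGFR1* to *FGFRL1* (left) and of the 5 summed ligands to the summed *FGFR1* to *FGFR4* (right) in each library, from CPM per kilobase of exon union, with miControl in blue and miR-6133-5p in red. The miR-6133-5p bars stand at 0.578 and 0.656 against 1.06 on the left, and at 12.2 and 11.2 against 20.3 and 23.7 on the right, and these heights depend on the length used.

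Beyond the 10 members, 65 genes of the FGF pathway were listed by role, and 48 had enough counts for a test. Of these 9 fell and none rose, against 5.54% and 2.90% of all tested genes, and the median log2 fold change was -0.24 against 0.03 over all genes. In edgeR, 6 of the 48 were higher at an unadjusted p-value below 0.05, and DESeq2, which gave 7 of them no adjusted p-value, called 9 lower and 0 higher. By the adjusted p-value alone, without the fold threshold, 11 passed as lower and 2 as higher, against 10.9% and 7.96% of all tested genes. With glmTreat only 1 of the 9, *EGR1*, was still called, and with scaling by library totals 8 were called lower and 1 higher. Of the 17 genes not tested, 10 had 0 counts in every library and none had more than 12 counts in any.

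The other ligands were scarce. Of 17, 8 had 0 counts in every library and 5 could be tested, and none of the 5 was called in either direction. The highest per length was *FGF14*, which encodes an intracellular FGF homologous factor rather than a secreted ligand, at 3.50 and 3.78 CPM with miControl and 1.91 and 2.40 CPM with miR-6133-5p. The log2 fold change of -0.75 did not pass (adjusted p = 0.0139, edgeR), and exons on the other strand overlap 31.2% of its exon bases. *FGF8*, chosen after its values were seen, had 0 and 2 counts with miControl and 14 and 20 counts with miR-6133-5p, without overlap but short of the threshold (adjusted p = 0.0206, edgeR).

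Among 10 coreceptors and binding proteins, 7 were tested and 1 fell. *FLRT2*, which encodes a membrane protein with leucine-rich repeats whose family binds FGF receptors, was at 12.6 and 14.98 CPM with miControl and at 5.98 and 5.48 CPM with miR-6133-5p (log2 fold change -1.27 ± 0.140 SE, adjusted p = 1.86e-05, edgeR). *L1CAM*, a cell adhesion molecule and the highest of the role per length, was at 83.3 ± 7.79 and 63.5 ± 6.51 CPM (log2 fold change -0.39, adjusted p = 0.0187, edgeR), which did not pass.

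Heparan sulfate holds the ligand on the receptor. Of 11 genes for its synthesis and editing, 9 were tested and 1 fell, *NDST1*, which encodes the N-deacetylase and N-sulfotransferase that starts the sulfation of the chain. It was at 377 and 362 CPM with miControl and at 173 and 203 CPM with miR-6133-5p (log2 fold change -0.98 ± 0.112 SE, adjusted p = 2.56e-05, edgeR). *GLCE*, the epimerase of the chain, was higher at an adjusted p-value of 0.00875 (edgeR) with a log2 fold change of 0.40, short of a call. The other 7 had log2 fold changes that did not pass the test.

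Of 4 genes listed for the export of ligands without a signal peptide, *SYT1*, encoding a synaptotagmin that takes part in the release of FGF1, fell from 43.2 ± 0.223 to 22.0 ± 0.607 CPM (log2 fold change -0.98 ± 0.105 SE, adjusted p = 1.47e-05, edgeR).

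Of the 10 adaptors and proximal signalling genes, all tested, 1 fell. *CBL*, which encodes a ubiquitin ligase that marks activated receptors for degradation, was at 148 and 150.5 CPM with miControl and at 54.5 and 73.1 CPM with miR-6133-5p, the widest gap between miR-6133-5p replicates among the 9 called genes relative to the level. The log2 fold change was -1.22 ± 0.131 SE (adjusted p = 1.50e-05, edgeR). *SHC1*, the adaptor with the highest level per length, was at 222 and 207 CPM with miControl and at 195 and 214 CPM with miR-6133-5p, with a 95% interval of the log2 fold change from -0.30 to 0.15. *GAB1*, a docking protein that recruits PI3K, was higher at an adjusted p-value of 0.000343 (edgeR) with a log2 fold change of 0.75, just short of a call, and it was called higher at 0.91 under scaling by library totals.

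The 7 inhibitors of the pathway, several of them transcribed in response to ERK, all had negative log2 fold changes, from -1.08 to -0.31. Their median was -0.76, where that of all tested genes was 0.03. The lowest value was that of *SPRY1*, which had 6 to 21 counts per library and a 95% interval from -2.48 to 0.32 (adjusted p = 0.240, edgeR). Of the 7 inhibitors, 2 fell. *SPRY2* went from 43.5 ± 1.12 to 22.1 ± 0.943 CPM and *SPRY4* from 33.7 ± 0.820 to 16.0 ± 0.416 CPM, log2 fold changes of -0.98 and -1.07 (adjusted p = 1.62e-05 and 9.56e-06, edgeR). *SPRED2* at -0.76 and *DUSP6*, the ERK phosphatase, at -0.71 had adjusted p-values below 0.01 (8.25e-05 and 0.000708, edgeR) without reaching the fold threshold, and exons on the other strand overlap 28.6% of the exon bases of *DUSP6*. *SPRED1*, the highest of the role per length, was at 129 ± 5.35 and 104 ± 2.81 CPM (adjusted p = 0.0354, edgeR). Its log2 fold change of -0.31 became -0.14 under scaling by library totals (adjusted p = 0.296, edgeR).

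Of 6 transcription factor genes induced by the pathway 3 fell. *EGR1*, an immediate early gene of ERK signalling, was at 19.1 and 16.9 CPM with miControl and at 3.43 and 3.40 CPM with miR-6133-5p (log2 fold change -2.40 ± 0.137 SE, adjusted p = 9.62e-08, edgeR). *ETV1* went from 15.3 ± 0.203 to 7.22 ± 0.0406 CPM and *MYC* from 160.2 ± 5.44 to 89.2 ± 3.83 CPM, log2 fold changes of -1.08 and -0.85 (adjusted p = 2.56e-05 and 4.23e-05, edgeR). *MYC* was at -0.68 and not called under scaling by library totals. The related *ETV4* and *ETV5*, named after their values were seen, were at -0.11 and -0.13 and did not pass, with 95% intervals from -0.37 to 0.14 and from -0.34 to 0.09. *FOSL1*, the highest of the role per length, was at 197 ± 6.11 and 164 ± 6.74 CPM (log2 fold change -0.26, adjusted p = 0.0684, edgeR).

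**Figure D4:**
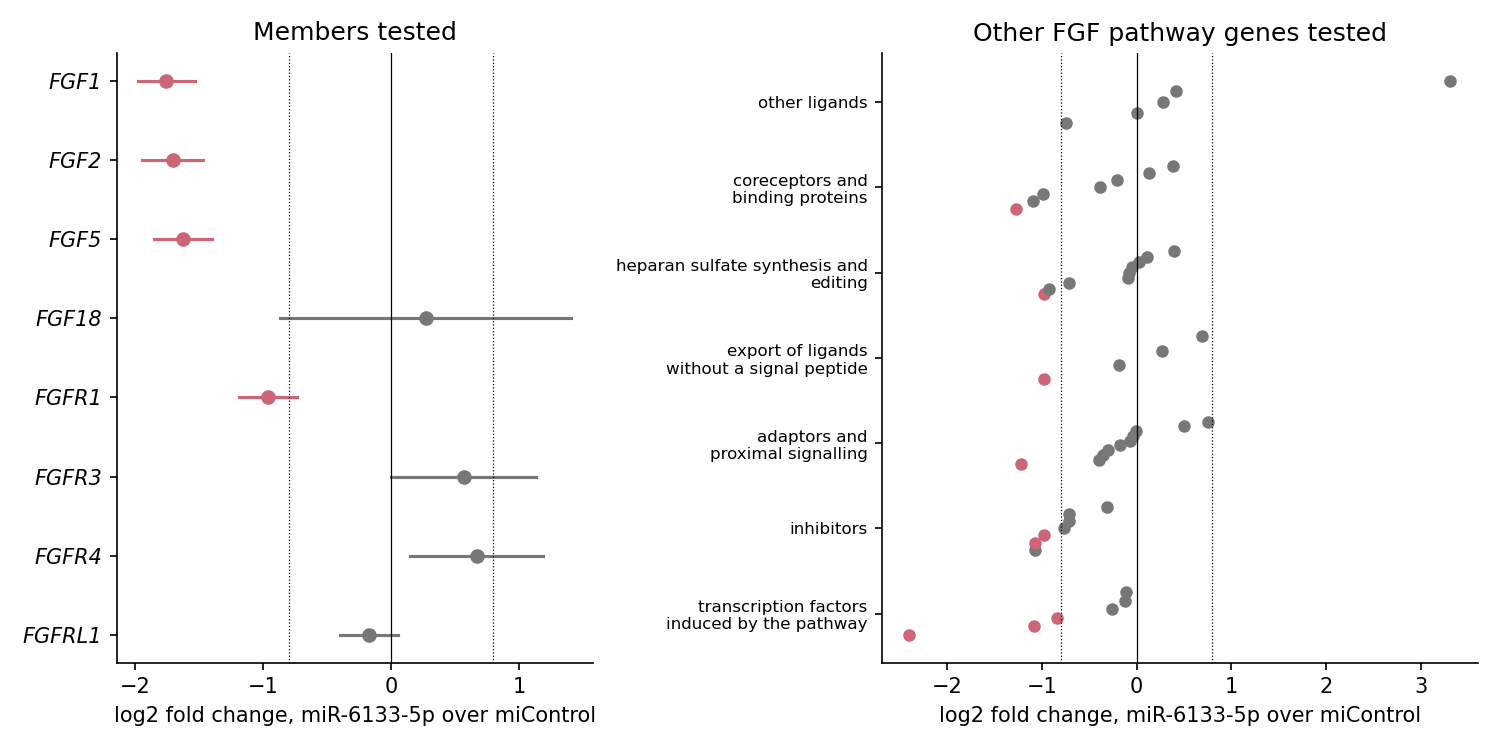
Log2 fold changes, miR-6133-5p over miControl, of the 8 tested members with 95% intervals (left) and of the 48 other FGF pathway genes tested, by role (right), with genes called lower in red, others in grey and dotted lines at -0.8 and 0.8. The red points on the left are *FGF1*, *FGF2*, *FGF5* and *FGFR1*, and the grey point far to the right is *FGF8*, whose fitted value rests on 0 and 2 counts with miControl.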

How the data were processed

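The authors aligned paired reads to GRCh37 with STAR 2.5.3a through GeneData Profiler, and the submitters' processing notes also name featureCounts and Subread 1.6.4. They deposited whole-number counts per Ensembl gene, without normalization, as 1 table and per library, and both held the same values. The annotation release and strand setting are not given in the sources used here. A deposited mapping summary counts uniquely mapped pairs. Gene counts came to 1.68 to 1.70 per pair, so a pair can give more than 1 count, and counts are not independent molecules.

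Genes were filtered with filterByExpr, scaled by TMM, and edgeR 4.0.16 under R 4.3.3 fitted them with glmQLFit and no replicate term, since the paper's methods mention no such term. The quasi-likelihood test was 2-sided, with Benjamini–Hochberg adjustment over 18252 genes, and used the thresholds of 0.01 and 0.8 in the paper's methods. Standard errors came from the F statistic and 95% intervals from its degrees of freedom. Levels are CPM with TMM-scaled totals. Lengths and positions came from GENCODE v44 in its GRCh37 version, and the authors may have counted over another annotation. Symbols were matched for 55665 of 63677 genes, and *PECAM1* was not matched. The alternatives were RLE size factors, totals alone, DESeq2 1.42.0, no count filter, at least 10 counts in every library, a replicate block, thinning to equal depth, leaving out each library, glmTreat, an adjusted p-value of 0.05 and other lengths. On simulated counts, edgeR recovered 89 of 100 2-fold changes and DESeq2 84, and both recovered all 100 4-fold changes. The changed genes lay above 1 CPM and all genes were given the same variation between replicates. The simulation therefore does not cover genes near the floor. Plots were drawn with matplotlib 3.10.9.

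The members, lists, motifs and tests were chosen with earlier results of these data known. All members were named, with every called gene of the pathway list, the highest gene of each role per length and the highest and lowest cell type markers, and further genes named outside this rule were chosen after their values were seen. The highest gene per length of 1 role is not reported here.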

Additional observations from a re-analysis of the deposited data

How the results depend on the processing

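The 4 falls of *FGF1*, *FGF2*, *FGF5* and *FGFR1* kept their direction under all alternatives, and the 3 ligands also kept their calls. *FGFR1* was not called with library totals alone (-0.79) or with glmTreat, so that 3 members were called under each of these. Of the 220 values of single genes under alternatives, 208 kept direction and side of the threshold, 11 were no longer called and 1 reversed. The reversed value was that of *FGF18*, which ran from -0.25 without miControl replicate 1 to 1.10 without miControl replicate 2. The 220 values cover only the tested members and the pathway genes called in the main test. A call gained by another pathway gene, such as *GAB1*, therefore could not be counted among them. The looser adjusted p-value and glmTreat reused the main log2 fold changes, so neither could reverse a direction. The looser adjusted p-value also could not lose a call. Besides *FGFR1*, the pathway genes no longer called were *MYC* with totals alone, where *GAB1* was called higher, and all but *EGR1* with glmTreat, which tests against the fold threshold itself and left 1 of 9. Over all genes, totals alone gave 709 lower and 977 higher calls against 1011 and 529, and glmTreat gave 326 and 80. Leaving out 1 library at a time, 770 to 1249 genes were called lower and 293 to 587 higher, the lowest count of 293 being without miControl replicate 1. The members called stayed at 4 and the pathway genes called ran from 9 to 11. The lone library left in a group is then assumed to vary like the others.

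With the longest transcript, the canonical transcript (added after the data were seen) or no length, the share of *FGFR1* was 96.7%, 97.0% and 98.1% with miControl and 90.8%, 91.5% and 94.6% with miR-6133-5p. The share of *FGF2* was 74.8%, 74.4% and 81.3% with miControl and 74.5%, 74.1% and 81.0% with miR-6133-5p.

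With a replicate block, 4 members and 10 pathway genes were called, and 1130 genes lower and 642 higher over all. Deviations of same-numbered libraries had a correlation of 0.049, and the labels do not say that a number marks a shared culture or day, so the libraries share only a number. *FGF7* and *FGF18* had at most 35 counts in any library, which limits the precision of their values.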
